A study of Mus musculus with 6 samples.

Results

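The genes described here encode receptors and signalling proteins for interleukin-4 (IL-4) and interleukin-10 (IL-10): the receptor chains Il4ra, Il10ra and Il10rb, the kinases Jak1 and Jak2, the transcription factors Stat3 and Stat6, and the feedback inhibitors Socs1, Socs3 and Cish. They were chosen by symbol, and all 10 were found among the 11789 genes of the expression table. All 10 passed the minimum of a mean of 1 FPKM, fragments normalised for gene length and library size, that 10696 genes of the table passed.

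Alveolar macrophages, which live in the air spaces of the lung, were taken from C57BL/6 mice after an exposure abbreviated as BLM, and their RNA was sequenced. There were 3 libraries labelled A20 conditional knockout (table columns A20-1, A20-3 and A20-4) and 3 labelled wild type (columns BLM1, BLM2 and BLM3), and the exposure was common to both groups. A20, encoded by Tnfaip3, is a ubiquitin-editing inhibitor of NF-kB signalling. The labels give no Cre driver or deleted exons, no dose or time of the exposure and no age of the mice, nor do they say if a library stands for 1 animal or a pool. The p-values thus reflect the spread among these libraries, some of which may be technical.

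As background, IL-4 binds the chain IL-4Ra, which pairs with a second chain, and receptor-bound JAK kinases then phosphorylate STAT6, the main route to alternative activation in mouse macrophages. IL-10 binds IL-10R1, encoded by Il10ra, together with IL-10R2, encoded by Il10rb and shared with other cytokines, and signals through JAK1, TYK2 and STAT3 to restrain inflammatory genes. SOCS proteins and CISH are made in response to STAT signalling and act back on receptors and JAKs.

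Several facts about the libraries bear on every value. BLM3 stood apart, with Pearson correlations across genes of 0.925 and 0.913 with BLM1 and BLM2, against 0.982 between those libraries and 0.977 to 0.980 among the libraries labelled knockout. The neutrophil markers, of which 7 of 9 were in the table, summed to 82.9 to 129 FPKM in the libraries labelled knockout, against 139 and 149 FPKM in BLM1 and BLM2 and 2770 FPKM in BLM3. S100a8 and S100a9 weighed heavily in the BLM3 sum, at 861 and 1535 FPKM there. Mmp8 was not highest in BLM3. It had 31.1, 41.7 and 26.2 FPKM in the libraries labelled knockout, against 13.4, 29.3 and 32.2 FPKM in BLM1, BLM2 and BLM3. Ly6g was at 2.25 FPKM in BLM3, 0.0752 in A20-1 and 0 in the other 4 libraries, and Retnlg was at 0 in BLM2. All 12 alveolar macrophage markers were in the table, and they summed to 4948 to 7226 FPKM in the libraries labelled knockout, against 5249, 6377 and 3732 FPKM in BLM1, BLM2 and BLM3. Chil3 alone had 4354, 3269 and 5471 FPKM in A20-1, A20-3 and A20-4, against 3856, 4765 and 2998 FPKM in BLM1, BLM2 and BLM3. The sums thus say little of the other markers. None of the 12 was at 0 in any library, and Marco was the only one called with 6 libraries, where 1.10% of all genes were called. Marco was at 8.43 ± 3.57 FPKM in the libraries labelled knockout and 32.2 ± 5.66 FPKM in those labelled wild type (SD, n = 3 each, limma adjusted p = 0.0466, or 0.0765 to 0.148 without any 1 library other than BLM3). Marco also fell without BLM3, where 2.50% of all genes fell. Cidec, Krt79 and Ear1, named after their values were seen, rose there, where 1.35% of all genes rose, with log2 differences of 1.94, 2.09 and 0.92 (limma adjusted p = 0.0266, 0.0462 and 0.0248). Fabp4, Itgax and Chil3 had negative log2 differences without BLM3 (-0.68, -0.30 and -0.0056), and the remaining markers had positive ones. The median over the 12 markers was 0.62 with 6 libraries and 0.17 without BLM3. T and NK cell markers (11 of 12 in the table, none at 0 in any library) summed to 190 to 226 FPKM in the libraries labelled knockout and to 189, 139 and 386 FPKM in BLM1, BLM2 and BLM3. Tnfaip3 itself had 8.44, 12.9 and 6.80 FPKM in the libraries labelled knockout, against 4.47, 2.18 and 21.6 FPKM in BLM1, BLM2 and BLM3. That is an exact two-sided permutation p of 1, where 0.1 is the smallest that 3 against 3 allows. The log2 difference was 0.46, and 1.27 without BLM3 (limma adjusted p = 0.734 and 0.0797). The gene's level does not bear out the label, and a whole-gene FPKM cannot check a deletion of unknown exons. Each difference below is therefore between libraries as labelled. In bulk RNA, fewer cells of a type and less RNA per cell cannot be told apart. The 10 genes are compared with and without BLM3.

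The comparison asks how these receptors and signalling genes differed between the libraries labelled knockout and those labelled wild type. By limma's moderated test on log2(FPKM + 1), with Benjamini-Hochberg adjustment over all 10696 genes, 0 of the 10 passed an adjusted p of 0.05, where 1.10% of all genes did. These were 0 higher and 0 lower, where 0.252% of all genes were called higher and 0.851% lower. At an unadjusted p under 0.05 there were 2, Stat3 and Stat6, against 20.3% of all genes. Without BLM3, again 0 of the 10 passed, where 3.84% of all genes did (1.35% higher, 2.50% lower). The median log2 difference, knockout minus wild type, was -0.0046 over the 10, against 0.02 over all genes, and it was 0.19 against 0.03 without BLM3. The groups did not overlap for 3 of the 10, as for 29.0% of all genes: Stat3 and Stat6 were higher, as 15.9% of all genes were, and Il10rb was lower, as 13.1% were. Without BLM3 they did not overlap for 4, as for 43.0% of all genes, since Socs1 joined Stat3 and Stat6 on the higher side, which held 23.5% of all genes.

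**Figure D1:**
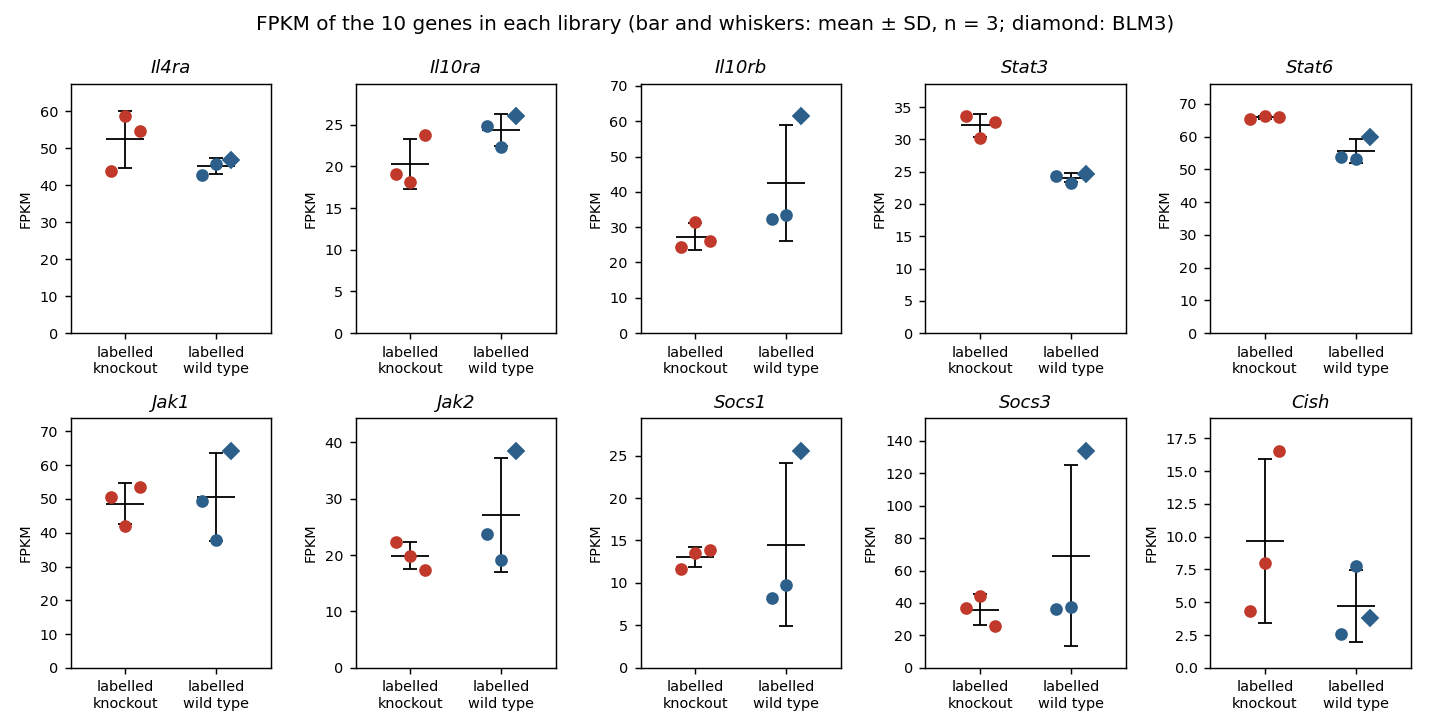
FPKM (y axis, from 0) of each gene in the 3 libraries labelled knockout (red, left) and the 3 labelled wild type (blue, right, with BLM3 as a diamond). The horizontal bar is the mean and the whiskers the SD (n = 3). Stat3 and Stat6 are higher in every red point than in any blue one, while Socs3 reaches 134 FPKM in BLM3 and at most 44.5 FPKM elsewhere.

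Il4ra, the ligand-binding chain of the IL-4 and IL-13 receptors (GRCm38 chromosome 7, 125552120 to 125579474, plus strand), was among the more abundant genes of the table. It had 43.8, 58.7 and 54.7 FPKM in A20-1, A20-3 and A20-4, against 42.8, 45.7 and 46.9 FPKM in BLM1, BLM2 and BLM3. A20-3 and A20-4 lay above all wild-type libraries, and A20-1 lay within their range. The knockout mean minus the wild-type mean of log2(FPKM + 1), called the log2 difference here, was 0.20 ± 0.13 (SE, 95% interval -0.12 to 0.52, limma adjusted p = 0.425), and 0.23 without BLM3. An increase of up to 1.44-fold on this scale therefore lies within the interval.

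Il10ra, which encodes the chain specific to IL-10 (chromosome 9, 45253837 to 45269149, minus strand), had 19.1, 18.1 and 23.7 FPKM in the libraries labelled knockout, against 24.8, 22.3 and 26.0 FPKM in BLM1, BLM2 and BLM3. Of the knockout libraries only A20-4 reached the wild-type range. The log2 difference was -0.26 ± 0.13 (SE, 95% interval -0.58 to 0.06, limma adjusted p = 0.318), and -0.21 without BLM3.

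Il10rb, the chain shared with the receptors of IL-22 and the lambda interferons (chromosome 16, 91406164 to 91425834, plus strand), had 24.3, 31.5 and 26.0 FPKM in the libraries labelled knockout, against 32.4, 33.6 and 61.4 FPKM in BLM1, BLM2 and BLM3. The groups did not overlap, but A20-3 and BLM1 differed by little, and BLM3 was 1.86 times the mean of BLM1 and BLM2. Its log2 difference was -0.57 ± 0.26 (SE, 95% interval -1.18 to 0.05, limma adjusted p = 0.276). Without BLM3 it was -0.27 ± 0.13 (adjusted p = 0.265), and over all alternatives the adjusted p ran from 0.187 to 0.519. Of 6 tested neutrophil markers, 5 were likewise highest in BLM3, and Mmp8 was highest in A20-3. The part of neutrophils in the Il10rb difference was not tested. The ratio of Il10ra to Il10rb, a comparison per length within a library, was 0.784, 0.575 and 0.912 in the libraries labelled knockout, against 0.765, 0.665 and 0.424 in BLM1, BLM2 and BLM3, so that it overlapped between the groups.

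Jak1, the kinase bound by both receptor systems (chromosome 4, 101152367 to 101265282, minus strand), had 50.5, 41.9 and 53.5 FPKM in the libraries labelled knockout, against 49.5, 38.0 and 64.2 FPKM in BLM1, BLM2 and BLM3. The wild-type libraries enclosed the knockout ones, with BLM2 lowest and BLM3 highest of all 6. A log2 difference of -0.03 ± 0.20 (SE, 95% interval -0.52 to 0.46, limma adjusted p = 0.945) was obtained, and its sign turned without BLM3 (0.15), without A20-3 (0.07), under TPM (FPKM rescaled to the same sum in each library, 0.05) and with array weights (0.01).

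Jak2, a kinase used by the interferon gamma and GM-CSF receptors among others (chromosome 19, 29251828 to 29313080, plus strand), had 22.3, 19.9 and 17.4 FPKM in the libraries labelled knockout, against 23.8, 19.2 and 38.5 FPKM in BLM1, BLM2 and BLM3. BLM3 was 1.79 times the mean of BLM1 and BLM2, and the other 5 libraries overlapped. On the log2 scale the difference was -0.38 ± 0.25 (SE, 95% interval -0.98 to 0.22, limma adjusted p = 0.422), and -0.11 without BLM3. As a share of the summed FPKM of the 4 JAK genes (Jak1, Jak2, Jak3 and Tyk2), Jak2 held 19.6%, 18.7% and 15.4% in the libraries labelled knockout, against 21.7%, 20.95% and 26.3% in BLM1, BLM2 and BLM3. These shares did not overlap. They depend on the other kinases of the sum, and no test was made of them.

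Stat3, the main effector of IL-10 (chromosome 11, 100885098 to 100939540, minus strand), had the smallest p of the 10 genes. It had 33.6, 30.2 and 32.7 FPKM in the libraries labelled knockout, against 24.3, 23.3 and 24.7 FPKM in BLM1, BLM2 and BLM3. All knockout values lay above all wild-type values, and BLM3 did not stand apart. The means were 32.2 ± 1.75 FPKM in the libraries labelled knockout and 24.1 ± 0.722 FPKM in those labelled wild type (SD, n = 3 each). The log2 difference was 0.40 ± 0.09 (SE, 95% interval 0.18 to 0.63), with an unadjusted limma p of 0.00407 and an adjusted p of 0.0993. It was 0.42 without BLM3 (adjusted p = 0.0696). With limma array weights, which gave BLM1 a weight of 6.09 and BLM3 one of 0.229, it passed the threshold (0.40, adjusted p = 0.0138), as did 18.1% of all genes under that setting (8.81% higher, 9.27% lower), and over all alternatives the adjusted p ran from 0.0138 to 0.312.

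Stat6, the main effector of IL-4 (chromosome 10, 127642986 to 127660957, plus strand), was the most abundant of the 10 in the libraries labelled knockout and varied least there. It had 65.4, 66.2 and 66.1 FPKM in the libraries labelled knockout, against 53.9, 53.3 and 59.8 FPKM in BLM1, BLM2 and BLM3. The groups did not overlap, with BLM3 nearest to the knockout libraries. The means were 65.9 ± 0.459 FPKM in the libraries labelled knockout and 55.6 ± 3.59 FPKM in those labelled wild type (SD, n = 3 each). Its log2 difference was 0.24 ± 0.10 (SE, 95% interval 0.01 to 0.47, limma adjusted p = 0.226), or 0.29 without BLM3 (adjusted p = 0.118). Only array weights brought it past the threshold (0.28, adjusted p = 0.0313), and the other alternatives reached an adjusted p of up to 0.448.

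**Figure D2:**
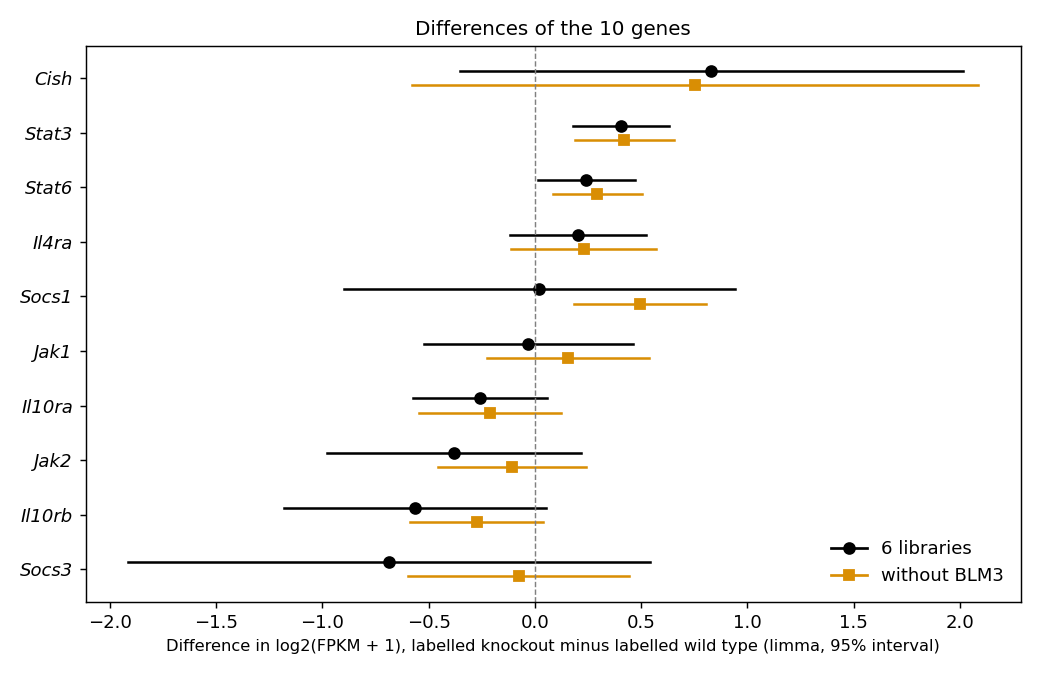
Difference in log2(FPKM + 1), labelled knockout minus labelled wild type (x axis), with its 95% limma interval, for all 6 libraries (black circles) and without BLM3 (orange squares). The Stat3 and Stat6 values move little without BLM3 (0.40 and 0.42, 0.24 and 0.29), whereas Socs3 goes to -0.08 and Socs1 to 0.49.

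The pair of STAT genes gave a comparison within each library. The ratio of Stat3 to Stat6 was 0.514, 0.456 and 0.495 in the libraries labelled knockout, against 0.451, 0.437 and 0.412 in BLM1, BLM2 and BLM3. Those ratios did not overlap, but A20-3 and BLM1 differed by little, and how often ratios of other genes do so was not worked out. In the summed FPKM of the 7 STAT genes, the Stat6 share overlapped. It was 33.6% in A20-1, against 34.2% and 34.7% in BLM1 and BLM2. The Stat3 share did not overlap, at 17.3% or more in the libraries labelled knockout and 15.4% or less in those labelled wild type. Shares and ratios within a library do not depend on the scaling between libraries, and they were not tested.

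**Figure D3:**
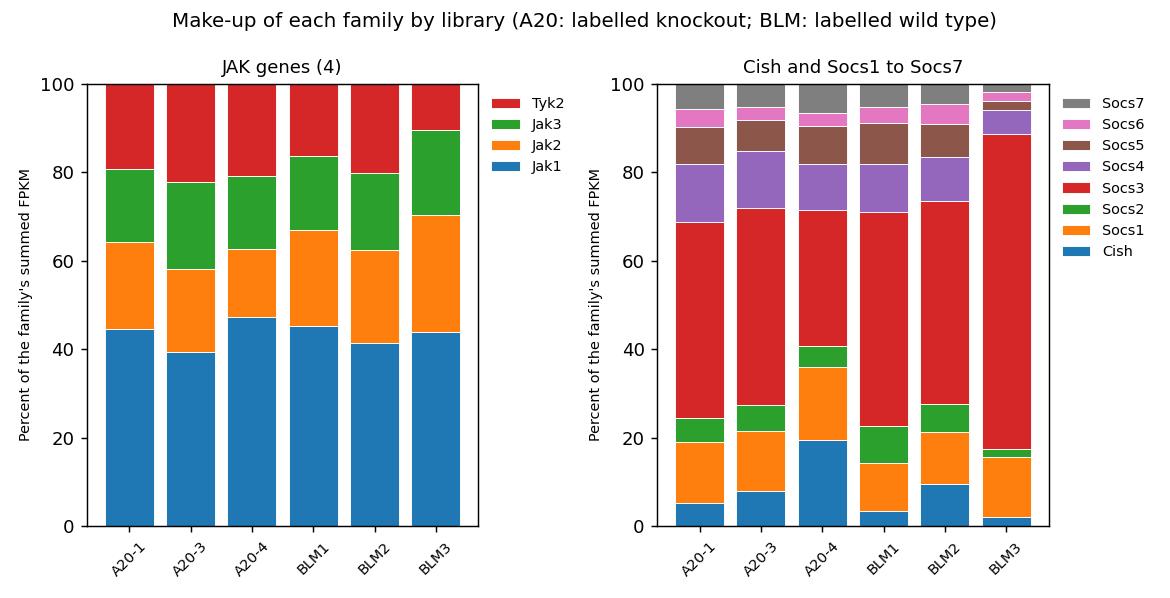
Share of each gene (y axis, percent) in the summed FPKM of the 4 JAK genes (left) and the 8 SOCS family genes (right), by library (x axis, A20 labelled knockout, BLM labelled wild type). Socs3 takes 71.0% of its family in BLM3, against 30.6% to 48.2% in the other 5 libraries, and Jak1 is the largest JAK segment in each library.

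The inhibitors were the most variable of the 10 genes. Socs1, which binds and blocks JAKs and limits interferon gamma and IL-4 signalling (chromosome 16, 10783808 to 10785536, minus strand), had 11.7, 13.5 and 13.9 FPKM in the libraries labelled knockout, against 8.18, 9.80 and 25.6 FPKM in BLM1, BLM2 and BLM3. The knockout libraries lay above BLM1 and BLM2 and below BLM3. The log2 difference was 0.02 ± 0.38 (SE, 95% interval -0.90 to 0.94, limma adjusted p = 0.979). Without BLM3 it was 0.49 ± 0.13 (95% interval 0.18 to 0.80) and missed the threshold (adjusted p = 0.0904), the smallest adjusted p of its alternatives, which reached up to 0.996. Its sign also turned under some of them: it was -0.27 without BLM1 and -0.16 without BLM2.

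Socs3, which binds the shared IL-6 family receptor and damps STAT3 (chromosome 11, 117966079 to 117970047, minus strand), had 37.2, 44.5 and 25.8 FPKM in the libraries labelled knockout, against 36.1, 37.8 and 134 FPKM in BLM1, BLM2 and BLM3. BLM3 was 3.62 times the mean of BLM1 and BLM2, and the other 5 libraries overlapped. The means of 35.8 ± 9.43 FPKM in the libraries labelled knockout and 69.2 ± 55.9 FPKM in those labelled wild type (SD, n = 3 each) differed by less than the wild-type spread. The log2 difference was -0.69 ± 0.51 (SE, 95% interval -1.91 to 0.54, limma adjusted p = 0.483), and -0.08 ± 0.22 without BLM3 (95% interval -0.60 to 0.44).

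Cish, a SOCS family inhibitor known as a STAT5 target (chromosome 9, 107296026 to 107302784, plus strand), was the least abundant of the 10 by mean in both groups. It had 4.36, 8.02 and 16.5 FPKM in the libraries labelled knockout, against 2.58, 7.79 and 3.79 FPKM in BLM1, BLM2 and BLM3. It was the only one of the 10 that was highest in A20-4, and its values spread widely within both groups and overlapped. The log2 difference of 0.83 ± 0.49 (SE, 95% interval -0.35 to 2.01, limma adjusted p = 0.380) was not detectable above that spread, and it was 0.75 without BLM3 (adjusted p = 0.455).

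The sequences shown here lie before the RefSeq transcription start for Socs3 and Socs1, and across it, mostly within the transcript, for Cish. They are given because the inhibitors are known to be induced by STATs and varied most of the 10. They come from RefSeq (GRCm38.p6), whose windows of 250 bases before and 50 after a start matched 8 of the 10 genes. For Socs3 and Cish the RefSeq start lies downstream of the gene start in the deposited table, so that those stretches fall within the gene coordinates given above. Capitals mark matches, sought on both strands, to TTCNNNGAA, the core letters of STAT sites, to TTCNNNNGAA, the spacing preferred by STAT6, and to GAAANNGAAA, the core letters of interferon-stimulated response elements. Among all 32851 windows, 8.30%, 6.95% and 3.44% held these motifs, in that order.
Socs3 (chr11:117969467-117969616, minus strand): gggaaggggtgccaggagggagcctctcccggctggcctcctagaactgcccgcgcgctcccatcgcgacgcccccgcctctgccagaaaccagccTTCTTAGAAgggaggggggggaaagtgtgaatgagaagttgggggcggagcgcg
Socs1 (chr16:10785537-10785686, minus strand): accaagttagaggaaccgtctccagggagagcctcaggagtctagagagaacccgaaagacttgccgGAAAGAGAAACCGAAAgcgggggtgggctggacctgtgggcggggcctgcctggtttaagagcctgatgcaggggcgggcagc
Cish (chr9:107296655-107296682, plus strand): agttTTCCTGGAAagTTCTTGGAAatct
The Socs3 match TTCNNNGAA began 154 bases before the start. Cish had a pair of TTCNNNGAA matches, which began at bases 1 and 12 of the RefSeq transcript. Socs1 had a pair of overlapping GAAANNGAAA matches, which began 83 and 77 bases before the start. The windows of Il4ra, Stat3, Stat6, Jak1 and Jak2 held no match to any of the motifs. A match describes the letters only.

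The order of the levels differed with the library. In the libraries labelled knockout, mean FPKM ran from Stat6 (65.9) through Il4ra (52.4), Jak1 (48.7), Socs3 (35.8), Stat3 (32.2), Il10rb (27.3), Il10ra (20.3), Jak2 (19.9) and Socs1 (13.05) to Cish (9.64). Among neighbours in that order, the values of Stat6 and Il4ra, of Il10rb and Il10ra, and of Jak2 and Socs1 did not overlap, and all other neighbours did. In the libraries labelled wild type Socs3 had the highest mean, but in BLM1 and BLM2 it lay below Stat6 and Il4ra. BLM3 held the highest value of 6 of the 10 genes (Il10ra, Il10rb, Jak1, Jak2, Socs1 and Socs3), where 26.5% of all genes were highest there.

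The genes most like the 3 most variable members were sought over the 6 libraries by the root mean square difference of log2(FPKM + 1) after centring each gene on its mean. For Socs3 these were the orphan nuclear receptor Nr4a3 (0.110), the TNF family ligand Tnfsf14 (0.116) and the cytokine subunit Ebi3 (0.149), each highest in BLM3, at 16.5, 19.3 and 14.3 FPKM. For Socs1 they were the death receptor Fas (0.102), the cytochrome P450 gene Cyp4f18 (0.107) and the RNA-binding protein gene Arid5a (0.125). For Cish the nearest were more distant, the histone gene Hist2h3c1 and Gm10073 (0.273 each) and the RNA-editing enzyme Adarb1 (0.351). Profiles over 6 libraries, 1 of which stands apart, describe these libraries only.

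The other genes of the cytokine and JAK-STAT pathway were counted over lists of ligands, receptor chains, kinases, STATs and inhibitors. Of 58 listed, 46 were in the table and 43 were tested, and limma called 0 higher and 0 lower, where it called 0.252% of all genes higher and 0.851% lower. At an unadjusted p under 0.05 there were 9 of 43, where 20.3% of all genes passed. Their median log2 difference was -0.02, against 0.02 over all genes. Without BLM3 it was 0.06, and 2 rose and 1 fell, where 1.35% of all genes rose and 2.50% fell.

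Among the ligands, Il4 and Il13 were not analysed here. Il10 did not reach the minimum level, at 0 FPKM in A20-1 and A20-3 and 0.227 in A20-4, against 0.0957, 0.234 and 3.43 in BLM1, BLM2 and BLM3. Ifng, the ligand known to induce Socs1, had 3.22, 5.50 and 3.54 FPKM in the libraries labelled knockout, against 0.808, 1.52 and 5.06 FPKM in BLM1, BLM2 and BLM3. It overlapped between the groups with 6 libraries (log2 difference 0.72, limma adjusted p = 0.390) and rose without BLM3 (1.23, adjusted p = 0.0464, within 0.0193 to 0.681 over its alternatives). T and NK cells are a usual source of this cytokine. Of their 10 tested markers 2, Cd8a and Nkg7, named after their values were seen, also rose without BLM3, where 1.35% of all genes rose. The log2 differences of Cd3d, Cd4 and Il7r were negative there (-0.17, -0.23 and -0.32). The part of such cells in the Ifng difference was not tested. The ligands Lif and Osm had log2 differences of 0.03 and -0.02, and both turned sign without BLM3 (-0.28 and 0.50).

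Among 17 other receptor chains, the 3 smallest p belonged to Il6ra, Ifngr1 and Il20rb. Il6ra, the specific chain of the IL-6 receptor, which signals through STAT3, had 16.1, 18.4 and 18.6 FPKM in the libraries labelled knockout, against 10.1, 8.53 and 13.2 FPKM in BLM1, BLM2 and BLM3. The groups did not overlap. Its log2 difference of 0.71 ± 0.16 (SE, limma adjusted p = 0.0978) missed the threshold, and without BLM3 it rose (0.86, adjusted p = 0.0242, within 0.00639 to 0.313 over its alternatives). Ifngr1, the ligand-binding chain of the interferon gamma receptor, had 97.5 ± 7.98 FPKM in the libraries labelled knockout and 70.0 ± 4.89 FPKM in those labelled wild type (SD, n = 3 each, limma adjusted p = 0.103, or 0.0543 without BLM3). Il20rb, a chain of the IL-20 family receptors, had 0.734 ± 0.267 and 1.92 ± 0.461 FPKM in the same groups (adjusted p = 0.104) and fell without BLM3 (-0.89, adjusted p = 0.0391, within 0.00811 to 0.316 over its alternatives).

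Among the other 7 JAK and STAT genes, the smallest p belonged to Tyk2, the kinase paired with JAK1 at the IL-10 receptor. It had 22.0, 23.6 and 23.7 FPKM in the libraries labelled knockout, against 17.8, 18.5 and 15.4 FPKM in BLM1, BLM2 and BLM3, with no overlap (log2 difference 0.40 ± 0.11, SE, limma adjusted p = 0.118). Stat5a and Stat4 followed, with log2 differences of 0.32 and -0.40 (adjusted p = 0.262 and 0.437), and of 0.19 and -0.16 without BLM3. Among the 16 other inhibitors, Socs7, the phosphatase Ptprc and the interferon-induced isopeptidase Usp18 had the smallest p, with log2 differences of 0.40, 0.49 and -1.39 (limma adjusted p = 0.111, 0.162 and 0.257), and of 0.37, 0.59 and -0.66 without BLM3. Usp18 was at 16.5 FPKM in BLM3 and at most 3.04 FPKM elsewhere.

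Genes known as STAT6 targets in mouse macrophages were set beside Il4ra and Stat6. Of 20 listed, 17 were tested, 1 fell and 0 rose, where 0.851% of all genes fell and 0.252% rose, and their median log2 difference was -0.51. Without BLM3, 6 fell and 0 rose, with a median of -0.64, where 2.50% of all genes fell. The gene called with 6 libraries was the scavenger receptor Msr1, at 24.7, 18.7 and 15.7 FPKM in the libraries labelled knockout, against 40.9, 51.5 and 45.5 FPKM in BLM1, BLM2 and BLM3 (log2 difference -1.20 ± 0.18, SE, limma adjusted p = 0.0445). Its call ended without any 1 library other than BLM3 (adjusted p 0.0547 to 0.170) and under TPM (0.0503).

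Arg1, which encodes arginase 1, had 2.58, 1.54 and 1.93 FPKM in the libraries labelled knockout, against 15.9, 16.5 and 94.1 FPKM in BLM1, BLM2 and BLM3. The groups lay far apart, and the wild-type spread came from BLM3 (log2 difference -3.35, limma adjusted p = 0.0747, or -2.53 and 0.00647 without BLM3, within 0.00556 to 0.265 over its alternatives). Il4i1, an amino acid oxidase, had 2.53 ± 0.487 FPKM in the libraries labelled knockout and 7.50 ± 2.78 FPKM in those labelled wild type (SD, n = 3 each, adjusted p = 0.0747). It fell without BLM3, as did the lectin Mgl2 and the chemokines Ccl17 and Ccl22, with log2 differences of -1.44 (Il4i1), -1.27, -1.02 and -0.79. Of these, Mgl2, Ccl17 and Ccl22 were named after their values were seen. With BLM3, Ccl17 and Ccl22 had -0.52 and -0.18 (adjusted p = 0.521 and 0.858), since BLM3 was their lowest library.

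Il4ra and Stat6 had positive differences, neither past the threshold, in the same libraries in which 6 of the 17 target genes fell without BLM3. Others of the list did not follow: Mrc1, the mannose receptor, had 236 ± 27.0 FPKM in the libraries labelled knockout and 149 ± 68.9 FPKM in those labelled wild type (SD, n = 3 each, limma adjusted p = 0.295), a log2 difference of 0.78, and 0.34 without BLM3. Dendritic cell markers were counted as well. Of 7 listed, 6 were in the table, none at 0 in any library. They summed to 31.9 to 39.8 FPKM in the libraries labelled knockout, against 77.4, 49.6 and 49.6 FPKM in BLM1, BLM2 and BLM3. Ccr7 weighed heavily in these sums. It had 23.2, 30.3 and 25.3 FPKM in the libraries labelled knockout, against 57.2, 31.3 and 42.6 FPKM in BLM1, BLM2 and BLM3. Clec9a, Flt3, Cd209a and Zbtb46, named after their values were seen, were lowest in BLM3, as Ccl17 and Ccl22 were. Ccr7 and Xcr1 were lowest in A20-1 and A20-4. Without BLM3, 3 of 6 fell (Xcr1, Clec9a and Flt3, named after their values were seen), where 2.50% of all genes fell. Markers of monocytes and recruited macrophages, with 10 of 10 symbols in the table and Itgam under a pair of IDs, summed to 478 to 794 FPKM in the libraries labelled knockout and to 1416 to 1509 FPKM in those labelled wild type. The complement genes C1qa, C1qb and C1qc among them fell with 6 libraries, where 0.851% of all genes fell. Their log2 differences were -1.89, -1.99 and -1.80 (limma adjusted p = 0.0140, 0.0134 and 0.0134). Over the alternatives their adjusted p reached 0.0946, 0.0943 and 0.0943, in the same order. They weighed heavily in the sums, with means of 117, 119 and 56.2 FPKM in the libraries labelled knockout and 426, 468 and 195 FPKM in those labelled wild type. Fn1 and Cx3cr1 had positive log2 differences (0.19 and 0.56), and all other entries of the list had negative ones. The part of either cell type in the STAT6 target differences was not tested.

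**Figure D4:**
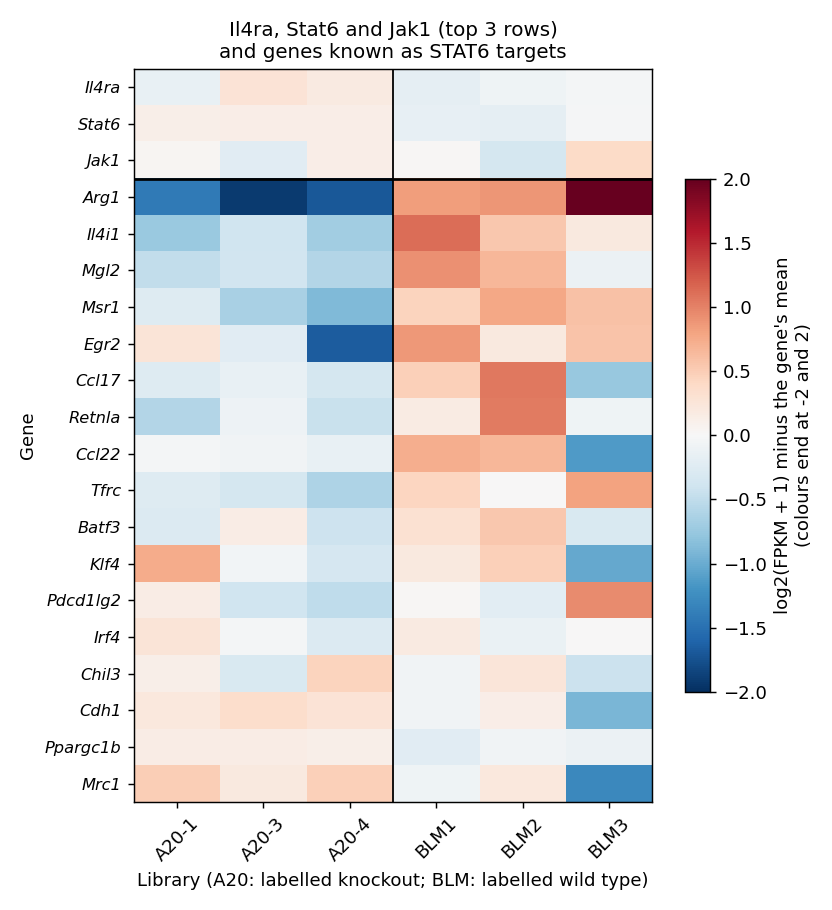
Heat map of log2(FPKM + 1) minus each gene's mean over the 6 libraries (colour, ending at -2 and 2), with Il4ra, Stat6 and Jak1 above the line and the 17 tested STAT6 targets below it, ordered by their difference without BLM3. Arg1, Il4i1, Mgl2 and Msr1 are blue in all 3 libraries labelled knockout (left), and Ccl17 and Ccl22 are lowest in BLM3.

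Genes known to respond to STAT3 and IL-10 in macrophages gave 0 calls among 15 tested, where 1.10% of all genes were called. There were 6 at an unadjusted p under 0.05, against 20.3% of all genes, with a median log2 difference of -0.32 with 6 libraries and 0.12 without BLM3. The chemokine Cxcl16 had 29.5 ± 4.39 FPKM in the libraries labelled knockout and 49.2 ± 5.33 FPKM in those labelled wild type (SD, n = 3 each, limma adjusted p = 0.0747). The transcription factor genes Cebpd and Nfil3 had log2 differences of 0.64 and 1.08 (adjusted p = 0.0991 and 0.178). Of these 15, BLM3 was the highest library for 10, against 26.5% of all genes.

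Socs3 is also known as a rapidly induced gene, so immediate early and stress genes were counted. Of 12 tested, 0 were called and 3 had an unadjusted p under 0.05, against 1.10% and 20.3% of all genes. There were 9 that were highest in BLM3, as Socs1 and Socs3 were, against 26.5% of all genes. The smallest p belonged to Atf3, Jun and Fos, with log2 differences of -1.49, -0.94 and 0.56 (limma adjusted p = 0.0718, 0.217 and 0.235), and of -1.28, -0.50 and 0.76 without BLM3. Their summed level was 190 to 364 FPKM in the libraries labelled knockout, against 223, 218 and 716 FPKM in BLM1, BLM2 and BLM3. The part of handling or of neutrophils in the high Socs1 and Socs3 of BLM3 was not tested.

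Several members share exonic bases with other genes in GENCODE M21. Il10rb does so on its own strand, with Gm21970. On the other strand Il4ra overlaps Gm44876, Stat3 overlaps Stat5a, Stat6 overlaps Nab2, Jak1 overlaps Raver2, and Cish overlaps Gm17040 and Gm17041. The sources used here do not say whether strand was used in counting, so reads from those shared bases cannot be assigned with certainty.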

How the data were processed

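The authors deposited a table of FPKM by gene and library, as its header says. The submitters' processing notes name GRCm38. No aligner, quantifier or annotation release, and no use of strand, is given in the sources used here. A stranded KAPA kit was used for the libraries, per the labels' protocols. The table lists 11789 protein-coding genes, each with a mean of at least 0.5001 FPKM in its higher group. Low values showed no steps of whole reads, so read depth could not be recovered and counting intervals are left out.

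Columns were put in groups by name: those named for A20 as knockout, those named for the exposure alone as wild type, the only other group. Genes with a mean of at least 1 FPKM over the 6 libraries were compared as log2(FPKM + 1), a pseudocount of 1, with limma 3.58.1 in R 4.3.3 (lmFit, eBayes with trend), two-sided, Benjamini-Hochberg adjusted over 10696 genes, threshold 0.05. The log2(FPKM + 1) scale understates changes of low genes. "Rose" and "fell" are used only past that threshold. Tested on values simulated for this comparison over 10696 genes, the fit recovered 71% of genes changed by 1 log2 unit and 93% of those changed by 2. Those percentages are over all genes and were not worked out for the 10 members. In the simulation 6 unchanged genes were also called. Each gene was simulated with the same spread in every library, so no library stood apart as BLM3 did. The percentages may therefore differ from those for the real libraries. Among the members the SE was largest for Socs3, Cish and Socs1 (0.51, 0.49 and 0.38 with 6 libraries). Recovery of a change in genes as variable as these was not tested.

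All 10 members are described. From each other pathway or response list the genes past the threshold and the 3 with the smallest p are named, and from marker lists those past the threshold or at 0. The members and lists were chosen with earlier results of these data known. Alternatives were other pseudocounts, filters and scalings, array weights, no trend, and leaving out each library. Some genes that these rules and lists include are not reported here.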

Additional observations from a re-analysis of the deposited data

How the results depend on the processing

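Over 14 alternatives and 10 genes, 128 differences kept their sign and their side of the threshold, 2 passed it and 10 turned sign. Array weights brought Stat3 (0.40) and Stat6 (0.28) past it, so 2 of the 10 members were called higher and 0 lower. Of the 43 JAK-STAT genes tested, 8 were called higher and 2 lower. Over all genes that setting called 8.81% higher and 9.27% lower. Leaving out a library, the JAK-STAT count ran from 0 to 2 higher and from 0 to 1 lower. Without BLM3 it was 2 higher and 1 lower, where 1.35% of all genes rose and 2.50% fell. Leaving out a library, the Jak1 difference ran from -0.22 to 0.15 and the Socs1 difference from -0.27 to 0.49. Jak1 was also positive under TPM (0.053) and array weights (0.012), and Socs1 negative with a pseudocount of 5 (-0.0087) and quantile normalization (-0.0039). Away from the members, Lif turned sign with array weights (-0.33) and ran from -0.28 to 0.27 without 1 library, and Osm turned under TPM (0.072) and array weights (0.62) and ran from -0.40 to 0.50. Ccl22 ran from -0.79 to 0.14. TPM put the median of all genes at 0.10, against 0.02 as deposited. Over all genes, 27 higher and 91 lower calls became 942 and 992 with array weights, 41 and 64 under TPM (39.0% higher, against 22.9% as deposited) and 17 and 58 with a minimum of 5 FPKM, and 0 to 144 and 0 to 267 without 1 library. A higher minimum tests fewer genes, and a left-out library leaves fewer values. Without BLM3 there were 144 higher and 267 lower calls, more than with 6 libraries. The cause of these changes was not tested. Unknown depth leaves the counting error of low genes such as Cish unmeasured. No paired analysis was possible because the table columns do not carry the replicate numbers of the sample titles.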

Other observations

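The heat shock genes Hspa1a and Hspa1b had 1.97 and 2.60 FPKM in A20-1, against 35.4 and 45.6 FPKM in A20-3 and 46.0 and 56.6 FPKM in A20-4, the libraries in which Cish was also higher than in A20-1. The 5 B cell markers summed to 20.1, 13.4 and 11.6 FPKM in the libraries labelled knockout, against 84.8, 10.6 and 78.1 FPKM in BLM1, BLM2 and BLM3, so that BLM2 resembled the knockout libraries there. The 10 epithelial markers summed to 309 to 398 FPKM in the libraries labelled knockout, against 201, 218 and 78.7 FPKM in BLM1, BLM2 and BLM3, with 0 called among 9 tested by limma (5 at an unadjusted p under 0.05), where 1.10% and 20.3% of all genes passed. Scgb1a1 weighed heavily in these sums, at 291, 217 and 112 FPKM in A20-1, A20-3 and A20-4, against 66.6, 111 and 23.1 FPKM in BLM1, BLM2 and BLM3. Krt8 and Krt18, named after their values were seen, fell without BLM3, where 2.50% of all genes fell.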
